A study of Mus musculus with 8 samples.

Results

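The genes described here are 43 genes of hepatic fatty acid oxidation (FAO), ketone body formation and PPAR-alpha action. They were taken from a fixed list of symbols, which was chosen with earlier results of these data known. Their shares beside those of all genes are therefore no test of the list. All 43 were found among the 55487 genes listed in the count tables, and all 43 passed the filter on low counts that left 13400 genes for testing. They comprise 18 genes of the mitochondrial pathway, 13 of the peroxisomal pathway, 7 of fatty acid uptake and activation, 2 of ketone body metabolism, and 3 that are a coactivator and other PPAR-alpha targets. RNA was sequenced from the whole liver of 4 Control mice, numbered 154, 159, 181 and 193, and from 4 Mc1r LKO mice, which were 141, 156, 157 and 182. All mice were males and received the cholesterol-rich Western diet for 12 weeks, starting at 8 weeks of age. They were killed after a fast of 4 hours. Control mice carried only the floxed allele (Mc1r fl/fl), and Mc1r LKO mice carried the same floxed allele with 1 copy of Alb-Cre, in which the albumin promoter drives Cre in hepatocytes. The deletion was therefore directed at hepatocytes, and whether the other cells of the liver kept the receptor was not measured. Any effect of Cre itself cannot be told apart from the loss of the receptor because the controls had no Cre. Mc1r had 0 counts in every mouse of either genotype, so the deletion could not be checked in these libraries.

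Fatty acids (FAs) enter the hepatocyte through membrane transporters, are bound by FABP1 and are joined to coenzyme A (CoA) by acyl-CoA synthetases. The carnitine shuttle (CPT1A, SLC25A20 and CPT2) carries long-chain acyl groups into mitochondria, where repeated cycles of β-oxidation release acetyl-CoA, part of which the liver turns into ketone bodies. Peroxisomes shorten very long-chain acyl chains, and acyl-CoA thioesterases (the ACOT family) split acyl-CoA back into free FA and CoA. PPAR-alpha is the nuclear receptor that FAs activate and that raises the transcription of many genes of these steps, with PGC-1α (Ppargc1a) as a coactivator, mainly during fasting. Whether these genes differ between livers with and without hepatocyte MC1R is the question of the comparison.

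Between 10773151 and 24763375 counts per mouse fell on genes, and no pair of mice of the same genotype was alike within the sampling noise (smallest chi-square per degree of freedom 11.853). The 6 hepatocyte markers were abundant in every mouse, with a summed level between 68500 and 86300 CPM (counts divided by the TMM-adjusted library size) in Control mice and between 75500 and 101000 CPM in Mc1r LKO mice. All 6 were higher in Mc1r LKO mice, and Tat alone passed an unadjusted p of 0.05 in the test given below, with a log2 fold change of 0.88. Mc1r LKO mouse 182 stood apart, since 21.7% of the 13400 genes lay more than 0.5 from the mean of the 8 mice on the log2 scale in it, against 7.74% to 16.4% in the other mice. Because whole liver was sequenced, fewer cells of a type and less RNA per cell cannot be told apart in any value below.

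Of the 43 genes, 0 had an adjusted p under 0.05 in the quasi-likelihood test of edgeR after Benjamini-Hochberg adjustment, as did 0 (0%) of all 13400 genes tested. At an unadjusted p under 0.05 and a log2 fold change of 0.25 or more in either direction, 1 of 43 genes (2.33%) passed, against 5.31% of all genes tested. That gene was Acot1, a cytosolic acyl-CoA thioesterase, which was 1.51-fold higher in Mc1r LKO mice (95% interval 1.24 to 1.86). It was also the 1 gene of the 43 in which the genotypes did not overlap, a pattern that 4.16% of all genes tested showed. The next smallest unadjusted p among the 43 was 0.229, for Fabp1. Among other tools, the edgeR likelihood ratio test and limma-voom gave 0 of the 43 at an adjusted p under 0.05, and the DESeq2 Wald test gave 1, which was Acot1 (adjusted p = 0.0499), among 0.184% of the genes to which it gave an adjusted p. Over all alternatives the adjusted p of Acot1 was between 0.0499 and 0.985.

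The other differences were small in both directions. In Mc1r LKO mice 24 of the 43 genes were higher and 19 lower, and with the counts scaled by library size alone 16 were higher and 27 lower. Of all genes tested, 47.9% were higher with TMM and 38.2% with library size alone. The median log2 fold change was 0.018 over the 43 genes and -0.0109 over all genes tested. The median absolute log2 fold change was 0.0652 over the 43 genes and 0.131 over all genes. For 37 of the 43 genes (86.0%) the 95% interval lay within a 1.5-fold change in either direction, as it did for 57.6% of all genes tested, and for 21 of 43 it lay within a 1.25-fold change. The spread between mice of a genotype was small in these genes, with a median SD on the log2 scale of 0.156 against 0.233 over all genes. None of these comparisons with all genes was matched for level. The largest SD was in a low gene, Acot3, with means of 8.76 CPM in Control mice and 11.1 CPM in Mc1r LKO mice. Acot2, Acot3, Abcd2, Ppargc1a, Ucp2 and Acot1 were the 6 genes whose interval reached beyond 1.5-fold. Summed over the 43 genes, the level was 2.11% ± 0.0632 (SD, n = 4) of all normalized counts in Control mice and 2.15% ± 0.0829 (SD, n = 4) in Mc1r LKO mice, with overlapping ranges.

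**Figure D1:**
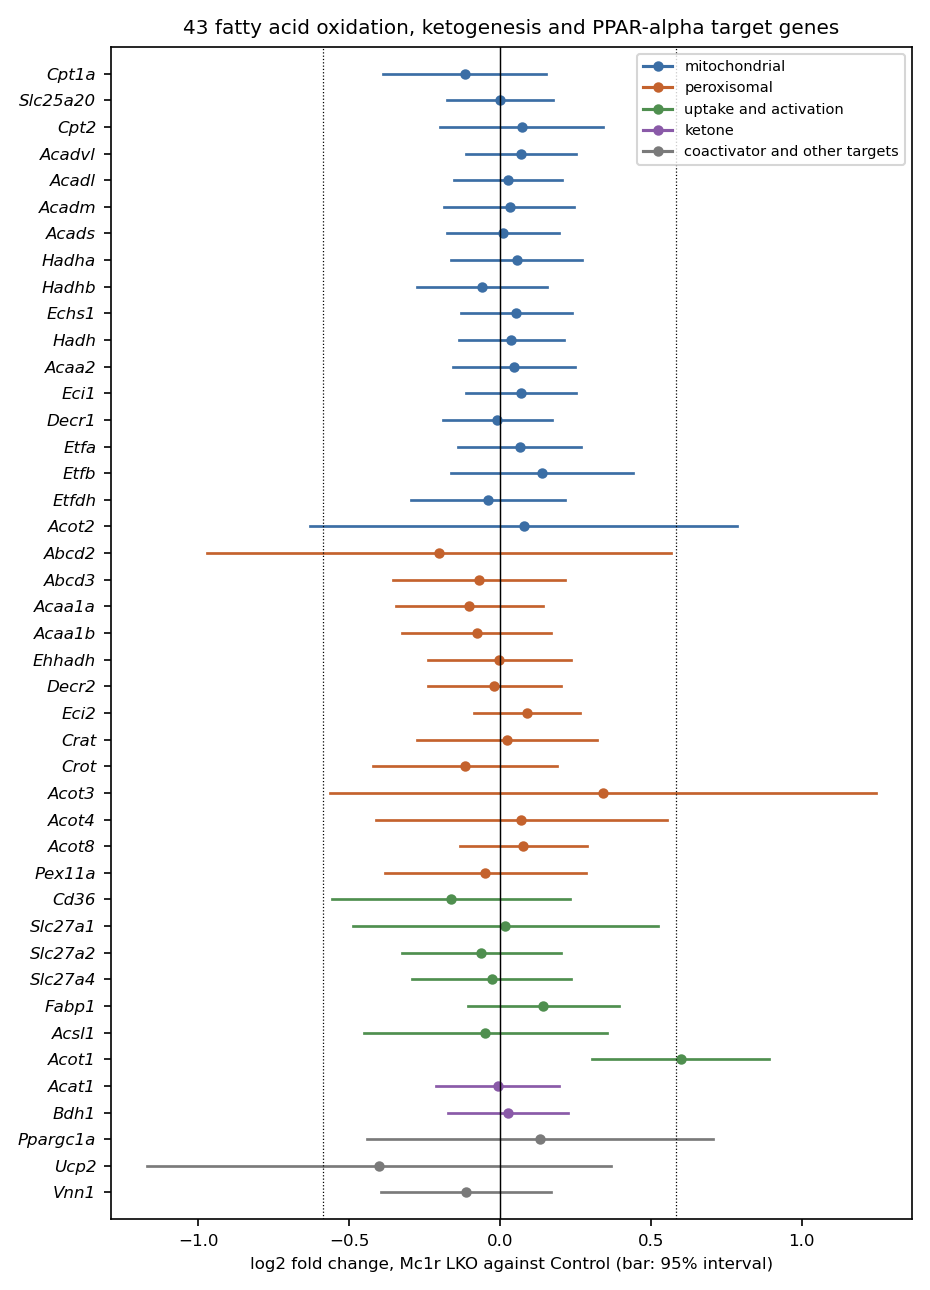
Log2 fold change of each of the 43 genes in Mc1r LKO mice against Control mice (x axis; point: estimate of edgeR's quasi-likelihood fit, bar: 95% interval, n = 4 mice per genotype), with genes in rows coloured by step and dotted lines at a 1.5-fold change. Acot1 is the 1 gene whose interval (0.305 to 0.892) does not include 0.

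The levels spanned a wide range. Per kilobase of summed exon length, Fabp1, the main cytosolic FA-binding protein of hepatocytes, was the highest of the 43 genes at 11100 RPKM (CPM divided by the exon length in kilobases, mean of 8 mice), followed by Acaa1b, a peroxisomal thiolase, at 1490 RPKM and Acaa2, the mitochondrial thiolase, at 588 RPKM. Slc27a1, an FA transport protein used mainly by muscle and fat, was the lowest at 1.13 RPKM, next to Ppargc1a at 1.34 RPKM. The order of neighbours depends on the length used, because the summed exons of some genes are longer than their principal transcript. With the principal transcript Echs1 was at 170 instead of 32.0 RPKM and Hadhb at 47.6 instead of 14.8 RPKM. The highest gene of each step stayed the same, but the lowest of the 43 genes became Ppargc1a at 1.37 RPKM, with Slc27a1 at 2.35 RPKM.

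**Figure D2:**
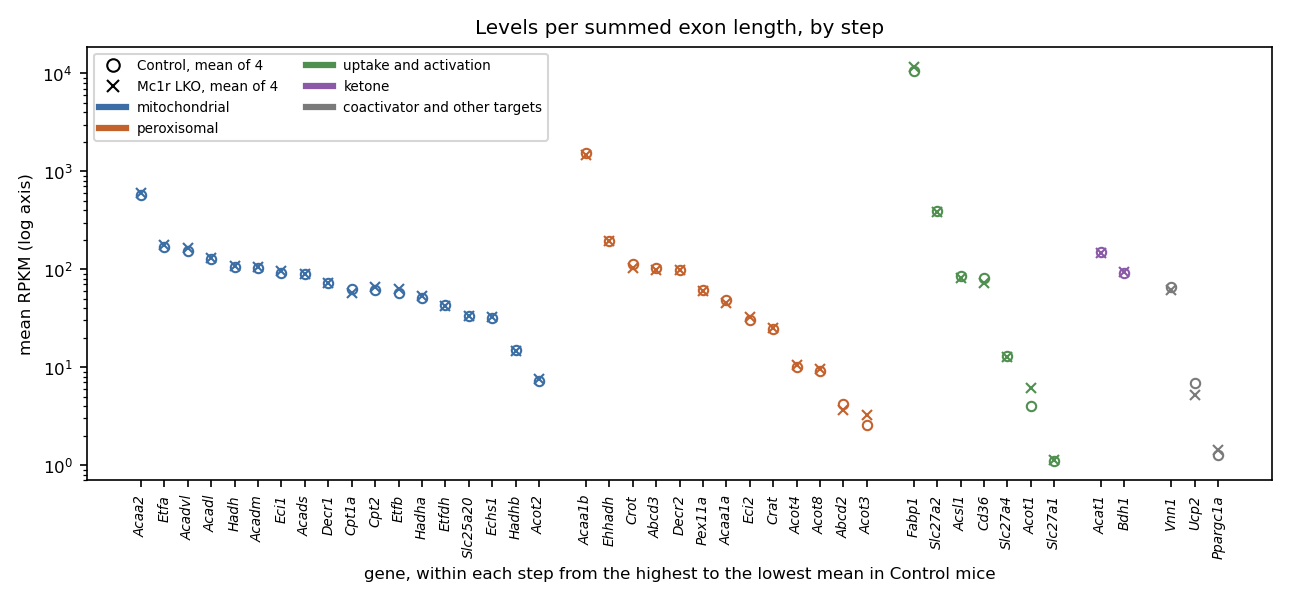
Mean level of each gene per kilobase of summed exon length (RPKM, log axis) in 4 Control mice (circles) and 4 Mc1r LKO mice (crosses), with genes on the x axis grouped and coloured by step. The levels of the genotypes lie almost on each other except for Acot1 and, among the low genes, Acot3 and Ucp2.

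In the mitochondrial pathway 14 genes were higher and 4 lower in the knockout, and 9 were higher and 9 lower with the counts scaled by library size alone. The share of all genes tested that were higher was 47.9% with TMM and 38.2% with library size alone. The median log2 fold change of the mitochondrial genes was 0.043, with a range from -0.12 to 0.14 and no unadjusted p under 0.328. Cpt1a encodes the carnitine palmitoyltransferase of the outer membrane, the entry point of long-chain FAs. Its level was 412, 434, 460 and 595 CPM in Control mice 154, 159, 181 and 193, and 432, 417, 438 and 466 CPM in Mc1r LKO mice 141, 156, 157 and 182. All 4 Mc1r LKO mice lay within the range of the Control mice, where mouse 193 was the highest. The log2 fold change of Cpt1a was -0.12 (SE 0.12, 95% interval -0.39 to 0.15, unadjusted p = 0.357, adjusted p = 0.907, quasi-likelihood test of edgeR). Cpt2, the carnitine palmitoyltransferase of the inner membrane, was at 155, 129, 160 and 149 CPM in the Control mice and at 137, 147, 148 and 192 CPM in the Mc1r LKO mice, in the same order of mice, which holds for all lists of values below. Its highest value was in Mc1r LKO mouse 182, and the other 3 Mc1r LKO mice lay within the Control range (log2 fold change 0.07, 95% interval -0.20 to 0.34). Slc25a20, the carnitine-acylcarnitine carrier between these enzymes, had a log2 fold change of 0.00 (95% interval -0.18 to 0.18).

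Of the acyl-CoA dehydrogenases, which carry out the first reaction of each cycle for chains of different length, Acadvl had the smallest p. It was at 423, 394, 441 and 407 CPM in Control mice and at 443, 409, 445 and 452 CPM in Mc1r LKO mice, so that 3 of 4 Mc1r LKO mice were above every Control mouse by a small margin (log2 fold change 0.07, 95% interval -0.11 to 0.25, unadjusted p = 0.415). Acadl, Acadm and Acads had log2 fold changes of 0.03, 0.03 and 0.01. Their intervals all lay within a 1.25-fold change.

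Hadha and Hadhb, the subunits of the trifunctional protein that handles long chains, had log2 fold changes of 0.06 and -0.06 with overlapping genotypes. For Hadhb, 19.7% of the 50-base stretches of its exons recur in other genes, and reads that fit several genes were not counted. Echs1 and Hadh, which hydrate and then dehydrogenate shorter chains, and Eci1 and Decr1, which handle unsaturated chains, had log2 fold changes between -0.01 and 0.07. Hadh varied least of the 43 genes between mice of a genotype, with an SD of 0.0433 on the log2 scale. Acaa2, which releases acetyl-CoA in the last reaction of the cycle and had the highest level of the step, was at 822, 936, 886 and 866 CPM in Control mice and at 920, 856, 859 and 991 CPM in Mc1r LKO mice. The genotypes overlapped, with a log2 fold change of 0.05 (95% interval -0.16 to 0.25).

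Etfa, Etfb and Etfdh pass the electrons of the dehydrogenases to the respiratory chain. Etfb had the smallest p of the mitochondrial genes, with 58.3, 86.0, 61.0 and 58.8 CPM in Control mice and 64.5, 75.0, 70.5 and 80.3 CPM in Mc1r LKO mice. All 4 Mc1r LKO mice exceeded 3 of the Control mice, and Control mouse 159 exceeded all of them. The log2 fold change was 0.14 (95% interval -0.16 to 0.44, unadjusted p = 0.328, adjusted p = 0.897, quasi-likelihood test of edgeR), and without Control mouse 159 it was 0.30 (unadjusted p = 0.0126, adjusted p = 0.577). The exons of Etfb share 58.2% of their bases with other annotated genes on the same strand, so its counts are uncertain. Etfa and Etfdh had log2 fold changes of 0.07 and -0.04.

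In the peroxisomal pathway 5 genes were higher and 8 lower in the knockout with TMM. With library size alone, 4 were higher and 9 lower. The shares of all genes tested that were higher were 47.9% and 38.2%. With TMM the median log2 fold change of the peroxisomal genes was -0.018, and their smallest unadjusted p in edgeR's quasi-likelihood test was 0.279. That p belonged to Eci2, an isomerase for unsaturated chains, which was at 161, 181, 165 and 166 CPM in Control mice and at 182, 183, 170 and 182 CPM in Mc1r LKO mice. The genotypes overlapped because Control mouse 159 exceeded Mc1r LKO mouse 157 (log2 fold change 0.09, 95% interval -0.09 to 0.27). Acaa1a, a peroxisomal thiolase, was at 177, 234, 212 and 233 CPM in Control mice and at 215, 201, 204 and 178 CPM in Mc1r LKO mice, all of the latter within the Control range (log2 fold change -0.10, 95% interval -0.35 to 0.14, unadjusted p = 0.379).

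Its near copy Acaa1b had the highest level of the step, with 2830, 2840, 3400 and 2910 CPM in Control mice and 2940, 2830, 3120 and 2470 CPM in Mc1r LKO mice. Control mouse 181 was the highest and Mc1r LKO mouse 182 the lowest, and the log2 fold change was -0.08 (95% interval -0.33 to 0.17). Since 30.5% of the 50-base stretches of Acaa1b recur in Acaa1a, reads of the pair cannot be fully separated. Ehhadh and Decr2, which act on the shortened and the unsaturated chains, had log2 fold changes of 0.00 and -0.02 with overlapping genotypes.

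Crot and Crat attach carnitine to medium and short chains that leave the organelle. Crot was at 555, 640, 632 and 633 CPM in Control mice and at 505, 486, 537 and 740 CPM in Mc1r LKO mice. In Mc1r LKO mice 141, 156 and 157 it was below every Control mouse, and in mouse 182 it was above every Control mouse. The log2 fold change of Crot was -0.12 (95% interval -0.42 to 0.19, unadjusted p = 0.413), and without mouse 182 it was -0.27 (unadjusted p = 0.0161, adjusted p = 0.574, quasi-likelihood test of edgeR). Crat was at 152, 136, 123 and 118 CPM in Control mice and at 123, 151, 156 and 107 CPM in Mc1r LKO mice, with a log2 fold change of 0.02 (95% interval -0.28 to 0.32). The Mc1r LKO mice lay on both sides of the Control range.

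Abcd2 and Abcd3 are transporters that bring acyl-CoA into peroxisomes, and Pex11a is a membrane protein of peroxisome division. Abcd3 and Pex11a had log2 fold changes of -0.07 and -0.05. Abcd2 was at 31.6, 28.9, 14.1 and 25.2 CPM in Control mice and at 29.9, 23.3, 24.8 and 8.64 CPM in Mc1r LKO mice, so that the lowest value of each genotype was in mice 181 and 182 (log2 fold change -0.20, 95% interval -0.97 to 0.57). Acot8, a peroxisomal thioesterase on another chromosome than the cluster described next, had a log2 fold change of 0.08 (95% interval -0.13 to 0.29).

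Acot2, Acot1, Acot4 and Acot3 lie in this order on the plus strand of chromosome 12 (GRCm38), from 83987861 to 83993873, from 84009490 to 84018371, from 84038379 to 84048601 and from 84052144 to 84060402. Their proteins act in different compartments, ACOT1 in the cytosol, ACOT2 in mitochondria, and ACOT3 and ACOT4 in peroxisomes. The sequences upstream of the 4 genes are shown because Acot1 passed the unadjusted threshold and its neighbours did not. They are the RefSeq promoter windows (GRCm38.p6) on the plus strand, ending at the base before the gene start of the count tables, in the order of the genes. Capitals mark a match to the hexamer AGGTCA or its reverse complement TGACCT, the core bound by nuclear receptors. It was found in the window of Acot4 alone among the 4, and in 14.0% of all 32851 promoter windows. A match is no measure of binding.
Acot2, chr12:83987611-83987860: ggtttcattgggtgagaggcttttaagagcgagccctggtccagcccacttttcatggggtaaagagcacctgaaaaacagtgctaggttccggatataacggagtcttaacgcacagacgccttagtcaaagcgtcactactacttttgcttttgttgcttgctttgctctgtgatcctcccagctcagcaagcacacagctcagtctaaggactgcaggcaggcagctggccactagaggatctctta
Acot1, chr12:84009252-84009489: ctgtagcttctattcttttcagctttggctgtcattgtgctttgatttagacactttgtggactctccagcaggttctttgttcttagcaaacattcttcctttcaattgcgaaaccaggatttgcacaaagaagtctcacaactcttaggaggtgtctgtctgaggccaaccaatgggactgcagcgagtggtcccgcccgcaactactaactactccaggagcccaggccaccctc
Acot4, chr12:84038129-84038378: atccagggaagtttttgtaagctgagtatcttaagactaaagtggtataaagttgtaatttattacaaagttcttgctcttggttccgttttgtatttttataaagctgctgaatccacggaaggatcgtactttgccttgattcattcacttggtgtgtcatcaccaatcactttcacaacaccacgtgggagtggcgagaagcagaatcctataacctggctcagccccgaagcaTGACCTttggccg
Acot3, chr12:84051894-84052143: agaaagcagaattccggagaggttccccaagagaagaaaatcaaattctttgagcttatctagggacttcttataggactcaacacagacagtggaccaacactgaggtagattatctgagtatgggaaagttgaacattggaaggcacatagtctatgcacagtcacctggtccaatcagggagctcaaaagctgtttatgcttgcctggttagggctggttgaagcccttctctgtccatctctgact

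Acot1 (ENSMUSG00000072949) was at 18.9, 12.8, 14.1 and 17.2 CPM in Control mice and at 22.7, 22.4, 26.7 and 24.1 CPM in Mc1r LKO mice. Every Mc1r LKO mouse was above every Control mouse. Control mice had a mean of 15.8 ± 2.80 CPM (SD, n = 4) and Mc1r LKO mice of 24.0 ± 1.98 CPM (SD, n = 4), which was a log2 fold change of 0.60 (SE 0.13, 95% interval 0.31 to 0.89, unadjusted p = 0.00103, adjusted p = 0.734, quasi-likelihood test of edgeR). Without both mice 181 and 182 the log2 fold change was 0.55 (unadjusted p = 0.00473).

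The neighbours of Acot1 overlapped between the genotypes. Acot2 was at 22.1, 17.1, 10.1 and 14.5 CPM in Control mice and at 18.3, 20.5, 21.0 and 7.46 CPM in Mc1r LKO mice. Acot4 was at 82.5, 59.3, 52.9 and 70.2 CPM in Control mice and at 86.9, 70.9, 79.7 and 41.2 CPM in Mc1r LKO mice. In Acot3 the values were 12.1, 8.46, 5.52 and 8.97 CPM in Control mice and 19.2, 9.88, 11.8 and 3.73 CPM in Mc1r LKO mice. In each of these 3 genes the lowest Control value was in mouse 181 and the lowest of all 8 values in Mc1r LKO mouse 182, whereas mouse 182 had the second highest value of Acot1.

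The log2 fold changes were 0.08 for Acot2 (95% interval -0.63 to 0.79), 0.07 for Acot4 (-0.41 to 0.56) and 0.34 for Acot3 (-0.56 to 1.25), so the intervals of Acot2 and Acot3 include the estimate for Acot1 and that of Acot4 ends just below it. Whether Acot1 differed from its neighbours in its change was not tested. Without mouse 182 the log2 fold change of Acot3 was 0.64 (unadjusted p = 0.0431, adjusted p = 0.617, quasi-likelihood test of edgeR), and without both mice 181 and 182 it was 0.47 (unadjusted p = 0.0922). The genes share sequence: 13.6% of the 50-base stretches of Acot1 recur in Acot2 and 24.5% of those of Acot2 in Acot1, and reads that fit both were not counted. Summed over the 4 genes, the level was 136, 97.7, 82.6 and 111 CPM in Control mice and 147, 124, 139 and 76.4 CPM in Mc1r LKO mice, with overlapping genotypes and a log2 fold change of 0.19 (SE 0.21, unadjusted p = 0.386).

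**Figure D3:**
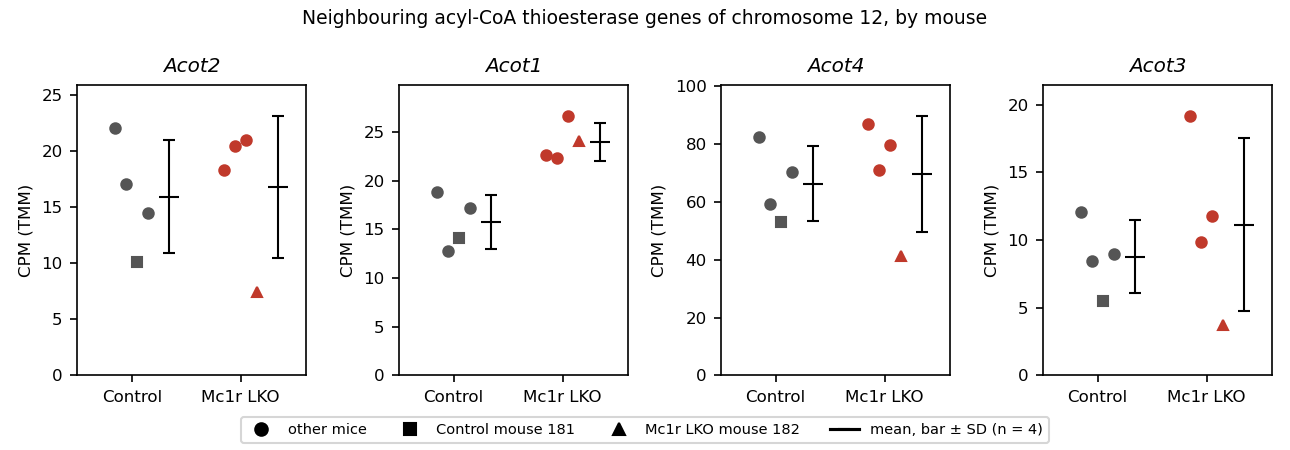
Level (CPM after TMM normalization, y axis from 0) of Acot2, Acot1, Acot4 and Acot3, in the order of their position, in each Control and Mc1r LKO mouse (points) with the mean and SD of 4 mice beside them. The square is Control mouse 181 and the triangle Mc1r LKO mouse 182, which has the lowest value in Acot2, Acot4 and Acot3 and 24.1 CPM in Acot1.

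Among the genes of FA uptake and activation 3 were higher and 4 lower in the knockout. With the counts scaled by library size alone, 2 were higher and 5 lower. The median log2 fold change of the step was -0.03 with TMM. Acot1 was the 1 gene past an unadjusted p of 0.05 in edgeR's quasi-likelihood test. It was counted here for its cytosolic thioesterase reaction, which is the reverse of activation. Fabp1 (ENSMUSG00000054422) had the second smallest p of the step and of all 43 genes. It was at 5940, 6480, 5710 and 5220 CPM in Control mice and at 6270, 6610, 7150 and 5780 CPM in Mc1r LKO mice. The highest 2 values were in Mc1r LKO mice 157 and 156, and the rest overlapped (log2 fold change 0.14, SE 0.11, 95% interval -0.11 to 0.40, unadjusted p = 0.229, adjusted p = 0.867, quasi-likelihood test of edgeR).

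Fabp1 is a classical PPAR-alpha target, and its upstream window is shown because it was the 1 window among those of the 43 genes that held a direct repeat on either strand, 2 copies of the hexamer AGGNCA with 1 base of any kind between them, the layout that PPAR-alpha binds with its partner RXR. The repeat is in capitals and was read on the minus strand.
Fabp1, chr6:71199629-71199826, plus strand, RefSeq GRCm38.p6, up to the gene start of the count tables: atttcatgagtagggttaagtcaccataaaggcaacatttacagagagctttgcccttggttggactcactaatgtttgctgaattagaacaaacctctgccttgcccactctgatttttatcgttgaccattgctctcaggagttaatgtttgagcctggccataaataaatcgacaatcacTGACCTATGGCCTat
The repeat was present in 1 of the 43 windows of 250 bases found for 37 of the 43 genes (2.33%) and in 0.338% of all 32851 windows. In Fabp1 it overlaps a match to the single hexamer AGGTCA. The single hexamer was present in 18.6% of the windows of these genes, in Acadm, Acadvl, Acot4, Cd36, Cpt1a, Echs1, Fabp1 and Slc27a2, and in 14.0% of all windows. A match describes the letters of the window and is no measure of binding.

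Cd36, the FA translocase of the cell surface, was at 341, 260, 287 and 282 CPM in Control mice and at 283, 268, 324 and 170 CPM in Mc1r LKO mice. Mc1r LKO mouse 182 was far below the other 7 mice, which overlapped. The log2 fold change was -0.16 (95% interval -0.56 to 0.23, unadjusted p = 0.383), and -0.01 without both mice 181 and 182. Cd36 is also known from endothelial cells, macrophages and adipocytes. All 5 endothelial markers were lower in Mc1r LKO mice, with 0 of 5 at an unadjusted p under 0.05, and their summed level was 121 CPM in mouse 182, while the other mice had 164 to 199 CPM. The part of these cells in the value of Cd36 was not tested. Of the 5 adipocyte markers, Lep was at 0 in every mouse and Adipoq, Plin1 and Retn were at most 0.365 CPM, while Cfd was present in every mouse, at 12.1 to 39.4 CPM in Control mice and 7.47 to 30.6 CPM in Mc1r LKO mice (log2 fold change -0.50, unadjusted p = 0.276).

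The FA transport proteins Slc27a1, Slc27a2 and Slc27a4 had log2 fold changes of 0.02, -0.06 and -0.03. Slc27a2, the most abundant of them in liver, ranged from 1260 to 1600 CPM in Control mice and from 1290 to 1680 CPM in Mc1r LKO mice. Acsl1, the main long-chain acyl-CoA synthetase of liver, ranged from 762 to 1060 CPM and from 685 to 1180 CPM, with its highest values in mice 181 and 182, the mice in which Abcd2, Acot2, Acot3 and Acot4 were lowest. Its log2 fold change was -0.05 (95% interval -0.45 to 0.36).

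Both ketone genes overlapped between the genotypes with narrow intervals. Acat1, the mitochondrial thiolase that joins acetyl-CoA units at the start of ketone body formation, was at 579, 518, 615 and 530 CPM in Control mice and at 577, 516, 551 and 585 CPM in Mc1r LKO mice (log2 fold change -0.01, 95% interval -0.21 to 0.20). Bdh1, which interconverts acetoacetate and β-hydroxybutyrate, was at 338, 341, 353 and 395 CPM in Control mice and at 365, 334, 376 and 379 CPM in Mc1r LKO mice (log2 fold change 0.03, 95% interval -0.17 to 0.22). For either gene a change of 1.25-fold in either direction lay outside the interval.

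Of the remaining 3 genes, none had an unadjusted p under 0.273. Ppargc1a was at 9.25, 7.44, 9.43 and 7.50 CPM in Control mice and at 13.1, 11.6, 6.71 and 5.77 CPM in Mc1r LKO mice. Here 2 Mc1r LKO mice were above and 2 below every Control mouse, and the log2 fold change was 0.13 (95% interval -0.44 to 0.71). Vnn1, a pantetheinase and known PPAR-alpha target, was at 144, 173, 168 and 157 CPM in Control mice and at 149, 133, 185 and 127 CPM in Mc1r LKO mice, with Mc1r LKO mice on both sides of the Control range (log2 fold change -0.11, 95% interval -0.39 to 0.17).

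Ucp2, an uncoupling protein homologue of the inner mitochondrial membrane that is also prominent in macrophages, had the largest difference after Acot1. It was at 43.6, 76.1, 23.7 and 49.6 CPM in Control mice and at 35.2, 48.2, 43.4 and 18.9 CPM in Mc1r LKO mice. The genotypes overlapped, with the highest value in Control mouse 159 and the lowest in Mc1r LKO mouse 182. The log2 fold change was -0.40 (SE 0.35, 95% interval -1.17 to 0.37, unadjusted p = 0.273), and it was -0.09 when Control mouse 159 was left out and -0.18 when mouse 182 was left out. The summed level of 8 Kupffer cell and macrophage markers was 299, 588, 265 and 429 CPM in Control mice and 281, 415, 296 and 185 CPM in Mc1r LKO mice. It was thus also highest in Control mouse 159 and lowest in Mc1r LKO mouse 182. Of the 8 markers 7 were lower in Mc1r LKO mice, 0 of 8 had an unadjusted p under 0.05, and none was at 0 in all mice. Their part in the value of Ucp2 was not tested.

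The spread between mice was uneven over the 43 genes. In 33 of 43 the SD within a genotype on the log2 scale was below the median of all genes, while Acot3 (0.763), Abcd2 (0.676), Ucp2 (0.65) and Acot2 (0.60) had the largest. In Mc1r LKO mouse 182, 7 of the 43 genes (16.3%) lay more than 0.5 from the mean of the 8 mice on the log2 scale, and all 7 were low. Over all genes tested the share in this mouse was 21.7%, with 2167 genes low and 744 high. The 7 of the 43 genes were Acot2, Abcd2, Acot3, Acot4, Cd36, Ppargc1a and Ucp2. Control mouse 181 had 4 such genes (9.30%, against 12.4% of all genes), Acot2, Abcd2, Acot3 and Ucp2, which were low in mouse 182 as well. In Control mouse 193 and in Mc1r LKO mice 156 and 157 there were 0 such genes. Of the 17 mitochondrial genes other than the thioesterase Acot2, 0 lay that far from the mean in mouse 182 or 181.

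**Figure D4:**
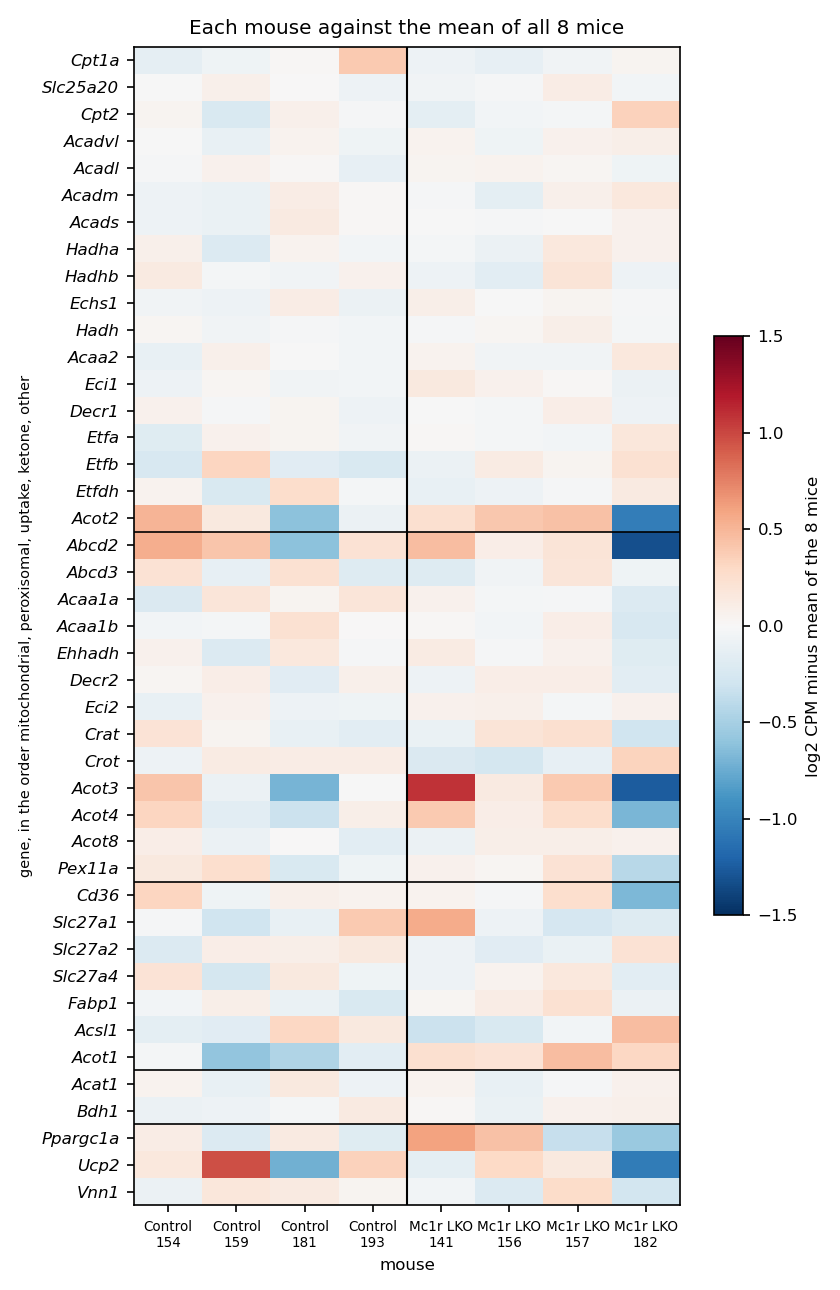
Deviation of each mouse (columns, 4 Control mice left and 4 Mc1r LKO mice right of the line) from the mean of the 8 mice on the log2 CPM scale, for the 43 genes (rows, grouped by step). Most fields are close to 0, and the deep blue fields gather in mice 181 and 182 in Acot2, Abcd2, Acot3 and Ucp2.

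A further list of 56 genes of the same pathways, with regulators and targets of PPAR-alpha, further mitochondrial and peroxisomal enzymes and import factors, binding proteins and ketone transporters, was examined beside the 43, and 55 of them were tested. None had an adjusted p under 0.05 in edgeR's quasi-likelihood test. At an unadjusted p under 0.05, 3 of 55 (5.45%) passed against 6.72% of all genes, all 3 higher in Mc1r LKO mice (3.86% of all genes) and 0 lower (2.87% of all genes). All 3 were among the 14 regulators and targets of PPAR-alpha, of which 8 were higher and 6 lower with a median log2 fold change of 0.009. The further list was chosen with earlier results of these data known. Its shares beside those of all genes, and the place of Angptl4, Lpin1 and Cyp4a14 in it, are therefore no test of PPAR-alpha targets. In 4 of 55 genes (7.27%) the genotypes did not overlap, against 4.16% of all genes, with 2 higher (2.63% of all genes) and 2 lower (1.54% of all genes). None of the 18 peroxisomal, 11 mitochondrial, 5 uptake and 7 ketone genes tested had an unadjusted p under 0.05. The median log2 fold change of the 55 genes was 0.00, with 27 higher and 28 lower.

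Angptl4, a secreted inhibitor of lipoprotein lipase and a PPAR target, was at 126, 94.8, 88.8 and 129 CPM in Control mice and at 170, 172, 184 and 173 CPM in Mc1r LKO mice. Every Mc1r LKO mouse was above every Control mouse, and the mean was 1.59-fold higher (log2 fold change 0.67, SE 0.13, unadjusted p = 0.000365, adjusted p = 0.734, quasi-likelihood test of edgeR). Lpin1, a phosphatidate phosphatase that also acts as a coactivator of PPAR-alpha, was at 164, 106, 169 and 97.9 CPM in Control mice and at 258, 361, 166 and 209 CPM in Mc1r LKO mice. Mc1r LKO mouse 157 overlapped with the Control mice and the other 3 were above them (log2 fold change 0.89, SE 0.26, unadjusted p = 0.00573, adjusted p = 0.734).

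Cyp4a14, an ω-hydroxylase of FAs and a PPAR-alpha target, was at 584, 180, 291 and 237 CPM in Control mice and at 757, 641, 657 and 325 CPM in Mc1r LKO mice. Mc1r LKO mouse 182 lay within the Control range, and the other 3 were above it (log2 fold change 0.88, SE 0.36, unadjusted p = 0.0336, adjusted p = 0.734, quasi-likelihood test of edgeR). Without Control mouse 159, 181 or 193 or Mc1r LKO mouse 141, 156 or 157 its unadjusted p was between 0.0650 and 0.0840, while leaving out Control mouse 154 raised the log2 fold change to 1.34 (unadjusted p = 0.000913).

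Ech1, an isomerase of unsaturated acyl-CoA, was at 380, 401, 378 and 383 CPM in Control mice and at 474, 411, 419 and 405 CPM in Mc1r LKO mice, without overlap (log2 fold change 0.15, unadjusted p = 0.114, adjusted p = 0.806, quasi-likelihood test of edgeR). In the opposite direction, Slc25a42, a mitochondrial carrier of CoA, was at 113, 115, 113 and 112 CPM in Control mice and at 92.8, 92.9, 111 and 102 CPM in Mc1r LKO mice (log2 fold change -0.18, unadjusted p = 0.0566, adjusted p = 0.750). Acox3, a peroxisomal oxidase of branched chains, was at 35.1, 35.3, 35.3 and 34.3 CPM in Control mice and at 29.9, 33.1, 32.3 and 28.4 CPM in Mc1r LKO mice (log2 fold change -0.18, unadjusted p = 0.0506, adjusted p = 0.743). In both genes the Control mice lay within a narrow band and every Mc1r LKO mouse was below it, for Slc25a42 by a small margin in mouse 157.

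**Figure D5:**
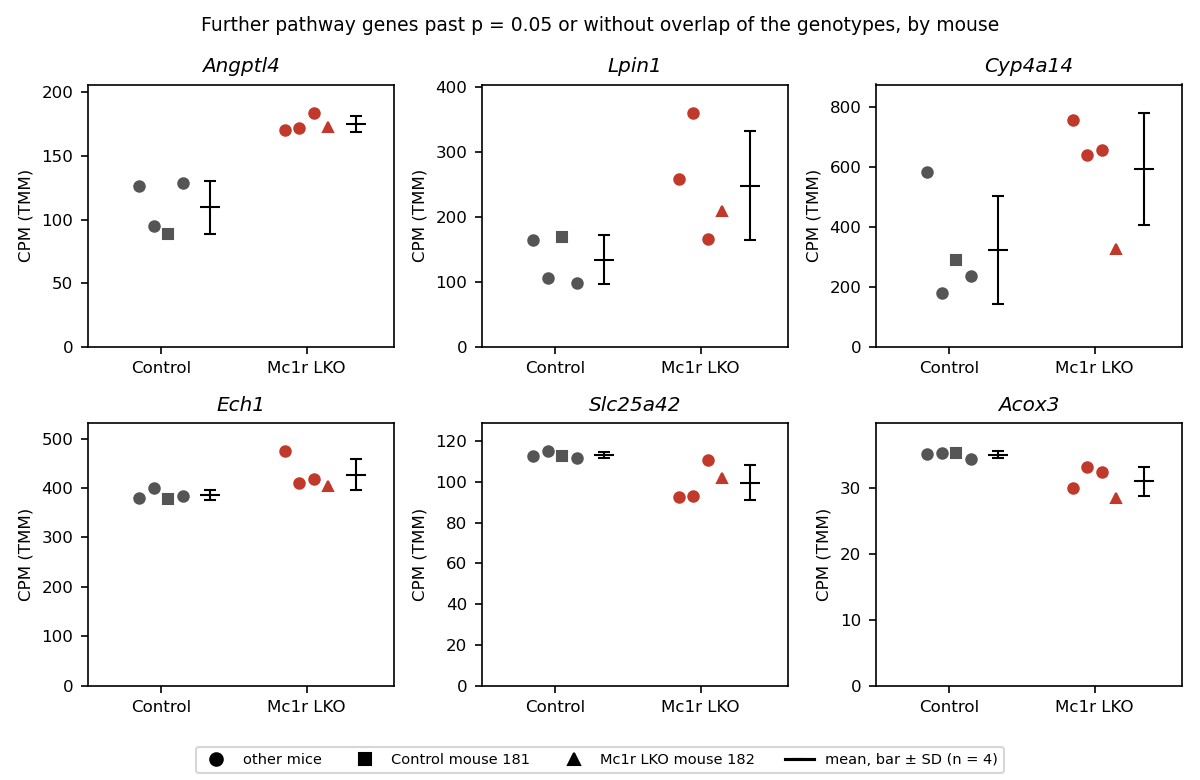
Level (CPM after TMM normalization, y axes from 0) of the 6 further pathway genes that had an unadjusted p under 0.05 or no overlap between the genotypes, in each mouse (points) with the mean and SD of 4 mice beside them. Angptl4 and Ech1 are higher and Slc25a42 and Acox3 lower in every Mc1r LKO mouse, while Lpin1 and Cyp4a14 overlap.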

How the data were processed

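Liver RNA of 4 Control and 4 Mc1r LKO mice was prepared with a stranded mRNA kit and sequenced. The authors trimmed the reads (Trim Galore 0.6.6), aligned them (STAR 2.7.6a) and deposited counts per gene for each mouse (featureCounts of Subread 2.0.1, headers naming Ensembl release 102 of GRCm38, while the methods write GRCh38), by strand, leaving out fragments that fit several places or genes, with no normalization or filter. From these counts, genes kept by filterByExpr (minimum count 10, minimum total 15) received TMM normalization and entered the quasi-likelihood test of edgeR 4.0.16 (glmQLFit, glmQLFTest) under R 4.3.3, adjusted by Benjamini-Hochberg over all 13400 genes, with 95% intervals from the fit. The test was first tested on simulated data, whose planted changes were all larger than that of Acot1, so smaller changes were not covered. CPM values are TMM-normalized, and RPKM divides them by the summed exon length. For a gene at 0, counting error alone leaves room for 3 counts (0.121 to 0.278 CPM by mouse). No source gives a batch. The labels number the mice, and the p-values weigh the difference between genotypes against the spread between mice.

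The 43 genes, the further list and the markers were chosen with earlier results of these data known. Values by mouse are given for each of the 43 genes with an unadjusted p under 0.05 or without overlap, for the highest per length, the 3 smallest p and the widest range of each step, and for Cpt1a, Cpt2, Cd36 and Crat. Values of Abcd2 and Acot4 were added after being seen. Of the further genes, those with an unadjusted p under 0.05 or without overlap are named. Recurring 50-base stretches were counted among annotated transcripts of GRCm38. Alternatives were the edgeR likelihood ratio test, DESeq2 1.42.0, limma-voom (limma 3.58.1), RLE, upper quartile and library size scaling, other filters, and leaving out each mouse. The summed Acot genes, the principal transcript length and leaving out mice 181 and 182 together were added after seeing the data.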

Additional observations from a re-analysis of the deposited data

Results flagged for a closer look

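Among the 86 sets of 4 mice (43 genes in each genotype), 7 held a mouse far from the other 3 by Dixon's criterion, where chance flags about 1 in 20, or 4.3 of 86. In 3 of them a Control mouse was high. Etfb was at 86.0 CPM in Control mouse 159, while the other Control mice had 58.3 to 61.0 CPM. In Control mouse 181, Echs1 was at 285 CPM (others 248 to 254 CPM) and Acaa1b at 3400 CPM (others 2830 to 2910 CPM). Crot was low in Control mouse 154, at 555 CPM against 632 to 640 CPM. Among Mc1r LKO mice, Acads was at 213 CPM in mouse 182 (others 202 to 203 CPM), Eci2 at 170 CPM in mouse 157 (others 182 to 183 CPM) and Acot8 at 17.6 CPM in mouse 141 (others 19.6 to 19.9 CPM).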

How the results depend on the processing

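No paired analysis was possible because the genotypes share no mouse number. Acot1 stayed higher in Mc1r LKO mice with an unadjusted p under 0.05 under every alternative, with a log2 fold change of 0.549 to 0.604 with all mice and of 0.525 to 0.702 when each mouse was left out. At an adjusted p under 0.05, the number of the 43 genes was 0 in edgeR's quasi-likelihood test and 1 (Acot1, adjusted p = 0.0499) in the DESeq2 Wald test, where 16 of all genes passed, against 8 in the edgeR likelihood ratio test, 1 without the filter and 0 otherwise. Leaving out each mouse, 1 to 3 of the 43 genes passed the unadjusted threshold and 1 to 3 did not overlap. Without both mice 181 and 182 these counts were 2 and 3. The added calls were Etfb without Control mouse 159, and Crot and Acot3 without Mc1r LKO mouse 182. The median log2 fold change of the 43 genes was -0.025 with library size scaling, where that of all genes was -0.056, and it stayed within the spread between mice under every alternative. Of all genes called at the unadjusted threshold, 25.3% were higher with library size scaling and 49.8% with TMM, and 1140 were called without the filter against 711. The unadjusted p of Cyp4a14 was 0.0550 with DESeq2, that of Slc25a42 fell under 0.05 with DESeq2, limma-voom, upper quartile scaling, library size scaling and at least 10 counts in every mouse (0.0246 to 0.0490), and that of Acox3 with the last 2 of these (0.0457 and 0.0487). They were also under 0.05 without Mc1r LKO mouse 157 for Slc25a42 (0.0290) and without Mc1r LKO mouse 156 for Acox3 (0.0389). With 4 mice per genotype, changes under 1.25-fold were within the interval of most genes.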
